A study of Mus musculus with 4 samples.

Results

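Solute carriers (SLC) are the large group of membrane proteins that move sugars, amino acids, ions, metals, nucleosides and other small molecules into, out of and within cells. The transcripts described here are those of protein-coding genes whose symbol follows the Slc family pattern, as listed in the deposited tables. They number 190 of 13685 genes listed in any table, or of 11694 that are protein-coding. Membership follows from the gene name, and 4 of the 190 carry the name without being transporters (Slc9a3r1, Slc9a3r2, Slc4a1ap and Slc7a6os). The tables list genes that reached about 1 CPM, the count scaled to library size, in at least 1 of their libraries. SLC genes outside them are not analysed here, and 173 of the 190 members had a value in all 4 libraries.

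RNA-seq was done on dendritic cells grown from bone marrow of C57BL/6 mice aged 4 weeks. All groups share a culture of 7 days in GM-CSF and IL-4, each at 10 ng/ml. One group stayed in control medium and one received Wnt2. A further group received CAF culture medium (CAF.CM), CAF being the usual abbreviation for cancer-associated fibroblast, and the last received CAF.CM pre-treated with antibody to Wnt2. Each group has 1 column of values, called a library here. The series text speaks of triplicates, and the labels do not say whether a column pools several cultures.

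With 1 library per group no spread between cultures can be estimated, so differences stand without replicate support and without p-values. Ratios are log2 ratios of CPM, higher or lower means by 2-fold or more where genes are counted, and the bracketed intervals are 95% exact binomial intervals that cover counting error only. Listed genes held 143071376 reads for control medium and 154399767 for Wnt2, against 25225220 for CAF.CM and 22791494 for CAF.CM + antibody. The last pair therefore gives wider intervals. In bulk RNA, fewer cells of a type and less RNA per cell cannot be told apart.

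Glucose enters cells through GLUT proteins of the Slc2 family, and the lactate made from it leaves through monocarboxylate transporters of the Slc16 family. Cationic amino acid transporters bring in the arginine that activated myeloid cells feed to nitric oxide synthase and arginase. Metal carriers are central to macrophages and dendritic cells, which recycle iron and withhold metals from microbes. Slc25 carriers link the cytosol with the mitochondrial matrix.

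With Wnt2, few SLC transcripts differed by 2-fold. Of 183 members listed against control medium, 3 were higher (Slc25a15, Slc25a37 and Slc12a5) and 5 lower (Slc18a1, Slc2a6, Slc22a18, Slc25a13 and Slc28a2). Of the 5 lower members 2 (Slc18a1 and Slc22a18) were under 1 CPM with Wnt2 and so listed only through control medium, where they were high. Of all genes lower with Wnt2, 28.1% were under 1 CPM there. The background was 2.87% higher and 2.93% lower over the 13120 genes listed, so 1.64% and 2.73% of members lay at or under it. The median ratio of the members was -0.11, beside -0.02 over all genes listed. For 2 higher members (Slc25a15 and Slc25a37) and 2 lower members (Slc2a6 and Slc25a13) the counting interval lay wholly beyond 2-fold, which held for 2.2% and 2.1% of all genes.

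CAF.CM went with more differences. Of 189 members listed, 32 were lower and 6 higher than in control medium. That is 16.9% of members lower, against a background of 8.69%, and 3.17% higher, against 6.68%. Of the 32 lower members 10 were under 1 CPM in CAF.CM and so were listed only through control medium, where they were high, and 2 of the 6 higher members were listed only through CAF.CM. Among members with a mean of at least 5 CPM over both libraries, 19 of 138 were lower (13.8%, beside 6.65% of all genes with that mean) and 4 higher (2.9%, beside 4.49%). The counting interval lay wholly beyond 2-fold for 22 of the lower and all 6 of the higher members (11.6% and 3.17%, beside 5.69% and 4.8% of all genes). Over protein-coding genes alone the background was 8.67% lower and 5.72% higher. The member median was -0.20, beside -0.04 over all genes listed and -0.06 over protein-coding genes. Of 25 carriers of inorganic ions 9 were lower, 5 of them listed only through control medium. Of 31 amino acid carriers 6 were lower and 2 higher, and of 38 Slc25 mitochondrial carriers 2 were lower and 2 higher.

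The Wnt2 antibody went with few differences from CAF.CM alone. Of 180 members listed, 2 were higher (Slc6a9 and Slc5a3) and 6 lower (Slc9a9, Slc16a9, Slc10a3, Slc12a2, Slc2a9 and Slc22a15). Of the lower members 4 (Slc9a9, Slc16a9, Slc12a2 and Slc22a15) were under 1 CPM with the antibody and so listed only through CAF.CM. Slc6a9 was under 1 CPM in CAF.CM and so listed only through the antibody library. Of all genes called, 38.2% of the lower and 51.1% of the higher were under 1 CPM in the lower library. The background was 1.02% higher and 3.65% lower, beside 1.11% and 3.33% of members. For none of the 8 did the counting interval lie wholly beyond 2-fold, which held for 0.176% of all genes upward and 1.25% downward. With at least 100 reads in 1 library, 1 higher (Slc5a3) and 2 lower members (Slc10a3 and Slc2a9) were left. Set against control medium, the antibody library had 36 of 180 members lower and 9 higher, beside 12.6% and 8.1% of all genes. The interval lay wholly beyond 2-fold for 25 of the lower and 6 of the higher members, beside 8.69% and 5.46% of all genes.

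**Figure D1:**
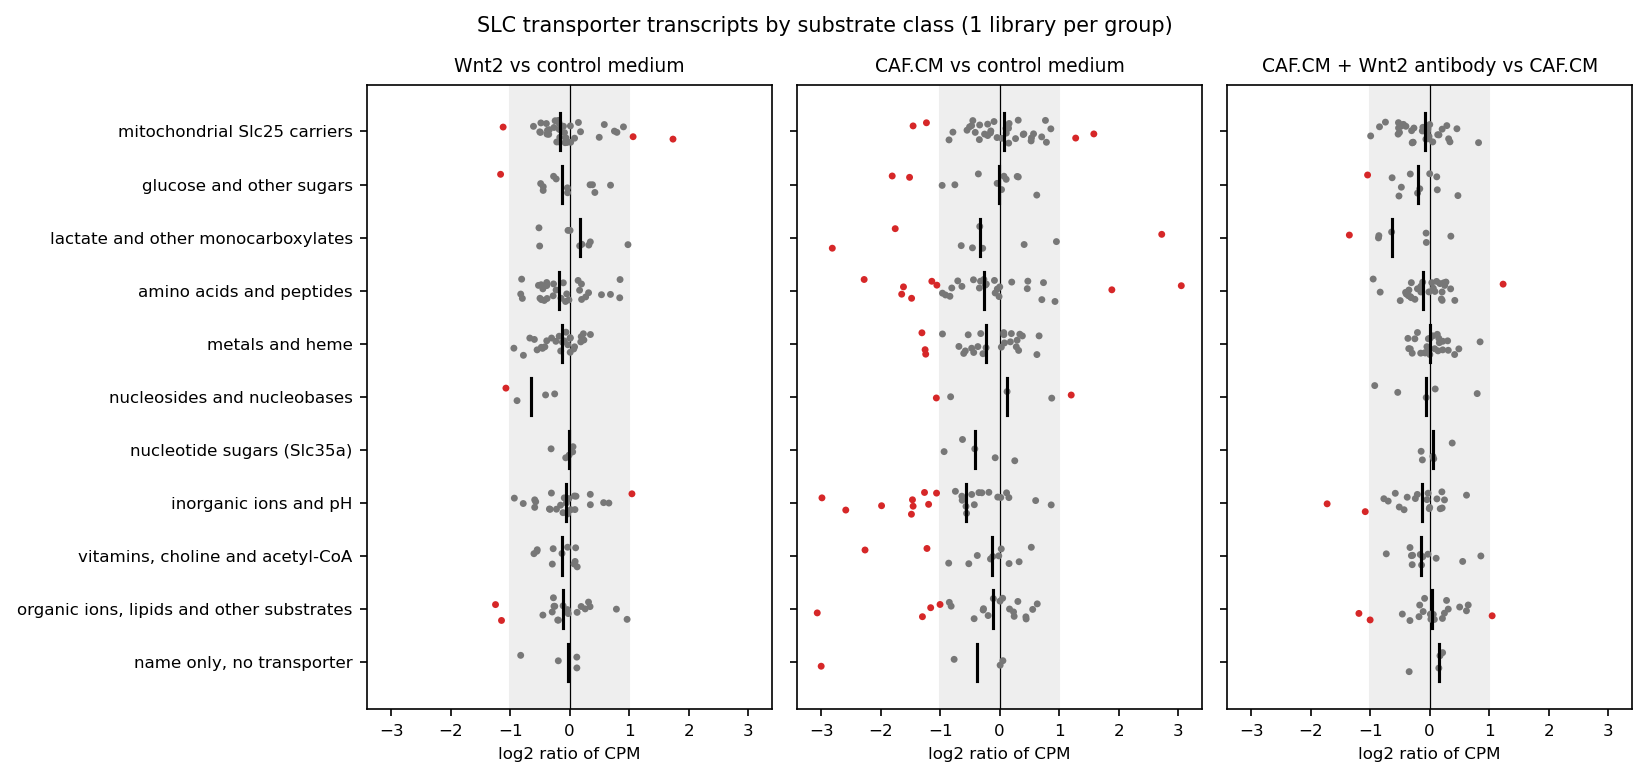
Log2 ratio of CPM (horizontal axis) of each SLC member by substrate class (rows) in 3 comparisons, with 1 library per group. Each point is 1 gene, red where it differed at least 2-fold, black bars are class medians and the grey band marks less than 2-fold. In CAF.CM against control medium 32 members lie left of the band and 6 right of it, against 5 and 3 for Wnt2.

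Among sugar carriers, Slc2a1, which encodes the main glucose importer GLUT1, was the most abundant of its class per transcript length in every library. It stood at 135 CPM in control medium, 218 with Wnt2, 208 for CAF.CM and 290 with antibody added. The lowest value was thus that of control medium. Its ratios were 0.69 (0.66 to 0.71) for Wnt2, 0.62 (0.58 to 0.67) for CAF.CM and 0.48 (0.42 to 0.53) for the antibody against CAF.CM, all short of 2-fold. Only the antibody library against control medium passed it, at 1.099. Slc2a3 (GLUT3), another high-affinity glucose importer, stayed between 7.14 and 13.4 CPM. Per kilobase of longest transcript, Slc2a1 was at 41.5 CPM in control medium and Slc2a3 at 1.60.

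Slc2a6, a GLUT protein of lysosomal membranes, went the other way. It was at 67.7 CPM in control medium, 30.3 with Wnt2, 40.2 for CAF.CM and 28.9 for the antibody. Control medium was the highest of the 4, and the Wnt2 ratio was -1.16 (-1.21 to -1.11). Slc37a2, a sugar-phosphate carrier of the endoplasmic reticulum that is abundant in macrophages, was at 114, 97.7, 32.7 and 22.8 CPM in the same order of libraries. Its ratio to control medium was -1.80 (-1.91 to -1.71) with CAF.CM and -0.23 with Wnt2. Slc2a9, a urate carrier, was near 10 CPM in 3 libraries (10.3, 10.1 and 10.6) and 5.08 with the antibody, a ratio to CAF.CM of -1.04 (-1.38 to -0.74).

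The lactate exporter gene Slc16a3 (MCT4) encodes the carrier best known for lactate export from glycolytic cells. It read 119 CPM in control medium and 234, 230 and 221 CPM with Wnt2, CAF.CM and CAF.CM + antibody. The 3 treated libraries lay close together, near 2-fold above control medium, with ratios of 0.98 (0.95 to 1.01), 0.95 (0.91 to 0.997) and 0.90. With libraries scaled by total reads, the CAF.CM ratio passed 2-fold. Slc16a1 (MCT1), which carries lactate in both directions, stayed between 23.0 and 35.1 CPM. Slc16a7 (MCT2), a high-affinity carrier of pyruvate and lactate, was at 13.8, 9.72, 4.07 and 2.59 CPM in the order control medium, Wnt2, CAF.CM and antibody. Its CAF.CM ratio was -1.75 (-2.06 to -1.48). Slc16a9 passed the listing limit only through CAF.CM (0.148 CPM in control medium, 1.11 in CAF.CM), so it had to differ there.

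Slc2a1 and Slc16a3 are known targets of hypoxia-inducible factor, whose core element reads ACGTG. The 250 bases before the RefSeq start site (build GRCm38.p6, plus strand for both genes) are shown because both transcripts were higher in all 3 treated libraries. The Slc2a1 window is chr4:119108495-119108744 and the Slc16a3 window is chr11:120948817-120949066. Capitals mark ACGTG, searched on both strands.
Slc2a1: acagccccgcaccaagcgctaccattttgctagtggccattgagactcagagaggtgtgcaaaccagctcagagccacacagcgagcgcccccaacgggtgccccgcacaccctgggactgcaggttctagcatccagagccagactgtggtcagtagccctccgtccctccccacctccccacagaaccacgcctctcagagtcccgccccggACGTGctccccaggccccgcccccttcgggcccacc
Slc16a3: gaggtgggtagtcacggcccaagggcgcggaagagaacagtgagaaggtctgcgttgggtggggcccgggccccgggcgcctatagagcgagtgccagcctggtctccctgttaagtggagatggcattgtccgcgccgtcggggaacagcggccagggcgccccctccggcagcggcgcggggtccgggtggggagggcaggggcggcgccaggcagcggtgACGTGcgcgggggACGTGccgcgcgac
The Slc2a1 window held 1 match, starting 36 bases before the start site, and the Slc16a3 window held 2, at 27 and 14 bases. Of all 32851 promoter windows of this length 16.6% held ACGTG, and of 194 windows of 141 members 23.2% did. A match describes letters and is not shown to be a bound site.

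Amino acid carriers had the largest summed CPM of the classes, 3188 of 8637 in control medium over members with 4 values. CPM is not corrected for transcript length, so this sum does not rank the classes by number of transcripts. Slc7a2, which encodes the arginine transporter CAT2, was, per kilobase of longest transcript, second to Slc25a5 in control medium (109 against 139 CPM) and first of all members in the other libraries. Other annotated genes hold 64.9% of the 31-base words in Slc25a5, so its reads are uncertain. Its level was 861 CPM in control medium, 1038 with Wnt2, 1641 for CAF.CM and 1312 for the antibody. Control medium was lowest, and the CAF.CM ratio of 0.93 (0.91 to 0.95) was the largest of the 3. Slc7a1 (CAT1), the constitutive arginine transporter, lay in the opposite order, with 19.2 CPM in control medium, 13.8 with Wnt2, 6.87 for CAF.CM and 8.10 for the antibody. Its CAF.CM ratio was -1.48 (-1.71 to -1.26).

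Both genes feed arginine to enzymes measured in the same libraries. Nos2, the inducible nitric oxide synthase gene, was at 16.7, 30.3, 751 and 1362 CPM in the order control medium, Wnt2, CAF.CM and antibody. Arg1, the arginase gene, was at 5479, 10252, 2201 and 1412 CPM. Arg1 was thus highest with Wnt2 and Nos2 with the antibody.

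Slc7a11 (xCT), the light chain of the cystine-glutamate exchanger, was highest with Wnt2. Its levels were 393, 632, 370 and 428 CPM, and its Wnt2 ratio was 0.69 (0.67 to 0.70) beside -0.09 (-0.12 to -0.06) for CAF.CM. The heavy chain Slc3a2, its partner in the membrane, was level between control medium and Wnt2 (159 and 158 CPM) and lower with CAF.CM (97.7 CPM) and antibody (118 CPM). Slc38a2 (SNAT2), an importer of small neutral amino acids, was at 88.8, 159, 47.3 and 49.3 CPM. Its ratio was 0.84 (0.81 to 0.87) with Wnt2 and -0.91 (-0.995 to -0.82) with CAF.CM, so the pair of treatments lay on opposite sides of control medium.

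Slc7a11 is a known ATF4 target. Its upstream window (GRCm38.p6, chr3:50443614-50443863, minus strand) is printed because this transcript separated Wnt2 from CAF.CM. Capitals mark the C/EBP-ATF element TGATGNAAN on either strand.
Slc7a11: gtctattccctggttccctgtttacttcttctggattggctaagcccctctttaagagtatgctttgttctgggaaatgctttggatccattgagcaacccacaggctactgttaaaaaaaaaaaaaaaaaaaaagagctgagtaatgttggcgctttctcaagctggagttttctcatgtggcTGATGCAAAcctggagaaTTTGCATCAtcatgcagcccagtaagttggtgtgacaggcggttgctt
The window held 2 matches, starting 66 and 48 bases before the start site, TGATGCAAA and, on the other strand, TTTGCATCA. Only 3.44% of all windows held this motif, and 2.58% of member windows. Atf4 itself was at 169, 137, 135 and 214 CPM, highest with the antibody.

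Of the 31 amino acid carriers 22 had a CAF.CM ratio under 0, beside 113 of 189 members and 7110 of 13329 genes listed. By 2-fold 6 were lower, beside 8.69% of all genes. Slc7a5 (LAT1), the large neutral amino acid transporter, was at 4.88 CPM in control medium, 2.81 with Wnt2, 1.57 for CAF.CM and 1.42 for the antibody. Slc1a5 (ASCT2), a glutamine transporter, was at 40.5, 22.9, 18.4 and 14.8 CPM. Slc36a2, a proton-coupled amino acid carrier, was at 40.8, 31.4, 13.02 and 7.28 CPM. In all 3 genes the order of the libraries was the same, with CAF.CM ratios of -1.62, -1.14 and -1.65. For Slc7a5 the CAF.CM and antibody values rest on 41 and 33 reads. Their ratio of -0.14 (-0.85 to 0.55) does not settle their order. Slc6a9 (GLYT1), a glycine transporter, was at 2.88, 2.04, 0.576 and 1.47 CPM, with a CAF.CM ratio of -2.28 (-3.17 to -1.58). Exons of other genes on the opposite strand cover 30.2% of its exon bases, and counting by strand is not stated, so its value is uncertain.

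Slc6a13 (GAT2), which carries GABA and taurine, was among the higher members. It read 4.16 CPM in control medium, 7.50 with Wnt2, 15.4 for CAF.CM and 19.7 for the antibody. The ratio was 0.85 with Wnt2 and 1.89 (1.70 to 2.08) with CAF.CM. Slc1a2, a glial-type glutamate transporter, was listed only through CAF.CM (0.127 CPM in control medium, 1.23 on 32 reads in CAF.CM). It therefore had to differ there (ratio 3.05). With antibody added it was at 0.948 CPM.

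Among metal carriers no member differed by 2-fold with Wnt2, or with the antibody against CAF.CM. Against control medium 3 of 27 were lower with CAF.CM, beside 8.69% of all genes. Ferroportin (Slc40a1), the only known iron exporter, was at 7.48 CPM in control medium, 6.06 with Wnt2, 3.15 for CAF.CM and 5.73 for the antibody. The CAF.CM library was lowest, with a ratio of -1.24 (-1.59 to -0.92), and the antibody ratio to CAF.CM was 0.85 (0.46 to 1.28). Both ratios use the CAF.CM library, which lies under 100 reads for this gene (82). The zinc importer gene Slc39a10 (-1.31) and the magnesium carrier gene Slc41a2 (-1.25) were the others.

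The heme carrier gene Slc48a1 (HRG1), which takes heme out of phagolysosomes, reached 99.2 CPM per kilobase in control medium. It stood at 251 CPM in control medium, 183 with Wnt2, 328 for CAF.CM and 407 for the antibody. The iron importer gene Slc11a2 (DMT1) had the same order, with 38.9, 25.8, 44.0 and 61.9 CPM. For both, Wnt2 was lowest and the antibody highest. Slc11a1 (NRAMP1), the phagosomal metal exporter, was highest in control medium (151 CPM) and between 112 and 116 CPM elsewhere. The zinc exporter gene Slc30a1 was at 24.7 CPM in control medium and 12.9, 12.7 and 14.8 CPM in the others, so its ratios of -0.94 (-1.02 to -0.86) and -0.96 (-1.13 to -0.80) came close to 2-fold.

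Nucleoside carriers were split. Slc29a1 (ENT1), the main equilibrative nucleoside transporter, was at 73.7, 61.9, 35.3 and 37.6 CPM, with a CAF.CM ratio of -1.06 (-1.16 to -0.97). The lysosomal form Slc29a3 had the CAF.CM ratio -0.82. Slc43a3, a purine nucleobase transporter, was lower with Wnt2 (4.56 CPM against 8.43) and higher with CAF.CM (19.4) and antibody (33.9). Its ratios were -0.88 (-1.02 to -0.75), 1.203 (1.05 to 1.36) and, between the CAF.CM libraries, 0.80 (0.64 to 0.97). Slc28a2, a concentrative nucleoside transporter, was lower with Wnt2 (-1.07) and other genes hold 51.0% of its 31-base words, so its reads are uncertain.

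Mitochondrial carriers held the highest ratios seen with Wnt2. Slc25a15, which brings ornithine into mitochondria for the urea cycle, was at 7.45 CPM in control medium, 24.8 with Wnt2, 22.4 for CAF.CM and 11.2 with antibody added. The Wnt2 and CAF.CM libraries stood above control medium and the antibody library between, with ratios of 1.74 (1.64 to 1.84) and 1.58 (1.44 to 1.73). With the antibody it was lower than in CAF.CM, at -0.99 (-1.21 to -0.78), just short of 2-fold and past it with scaling by total reads. Slc25a37 (mitoferrin-1), the mitochondrial iron importer, was at 77.4, 162, 188 and 152 CPM, and control medium was again lowest. Its ratios were 1.07 (1.03 to 1.099) and 1.28 (1.23 to 1.33), and -0.30 between the CAF.CM libraries. Its paralog Slc25a28 (mitoferrin-2) was at 15.8, 23.7, 28.8 and 28.1 CPM.

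The Slc25a15 gene spans chr8:22375551-22398597 on the minus strand in GENCODE M21 (GRCm38), and RefSeq gives it 2 start sites. The window before the downstream start, chr8:22398278-22398527, is shown for the E-box CACGTG in capitals, a palindrome that contains ACGTG.
Slc25a15: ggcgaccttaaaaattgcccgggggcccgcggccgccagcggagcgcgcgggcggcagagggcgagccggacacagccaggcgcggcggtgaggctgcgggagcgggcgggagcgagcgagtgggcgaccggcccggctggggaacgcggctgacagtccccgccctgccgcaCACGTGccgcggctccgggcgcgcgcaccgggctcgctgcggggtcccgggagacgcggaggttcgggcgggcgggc
The match started 77 bases before that start site. The window of the upstream start, chr8:22398622-22398871, held no such match. Of all windows, not restricted to listed genes, 6.02% held CACGTG, and of member windows 13.4%. Of the other motifs searched on both strands, TGACNNNGC was in 10.2% of all windows and 17.5% of member windows, and TTCNNNGAA in 7.02% and 4.64%. The NF-kB motif was in 17.6% and 22.7%, and TGCNCNC in 44.4% and 47.4%.

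Slc25a13 (citrin), which exchanges aspartate for glutamate in the malate-aspartate shuttle, lay in the opposite direction. It was at 28.7 CPM in control medium, 13.2 with Wnt2, 10.4 for CAF.CM and 7.24 for the antibody. Its ratios were -1.12 (-1.20 to -1.04) and -1.45 (-1.64 to -1.28). Its paralog Slc25a12 stayed between 30.0 and 37.6 CPM. Slc25a24, an ATP-magnesium/phosphate carrier, was at 58.0, 44.8, 24.7 and 17.1 CPM. The adenine nucleotide translocase Slc25a4 was higher with CAF.CM (200 CPM against 116), while the phosphate carrier Slc25a3 lay between 211 and 238 CPM in all 4 libraries. The summed CPM of the 37 Slc25 members with 4 values was 1560 in control medium, 1543 with Wnt2, 1717 for CAF.CM and 1724 for the antibody.

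Transcripts encoded by mitochondrial DNA were measured in the same libraries. Of 9 examined, 7 were lower with CAF.CM than in control medium and 6 were lower with the antibody than with CAF.CM, with medians of -1.88 and -1.43, beside a median of 0.07 for Slc25 members with CAF.CM. The nuclear RNA Malat1 was at 13899, 17692, 27631 and 37882 CPM. These values, often read as signs of RNA quality, moved with the CAF.CM libraries, and their part in the SLC differences was not tested.

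**Figure D2:**
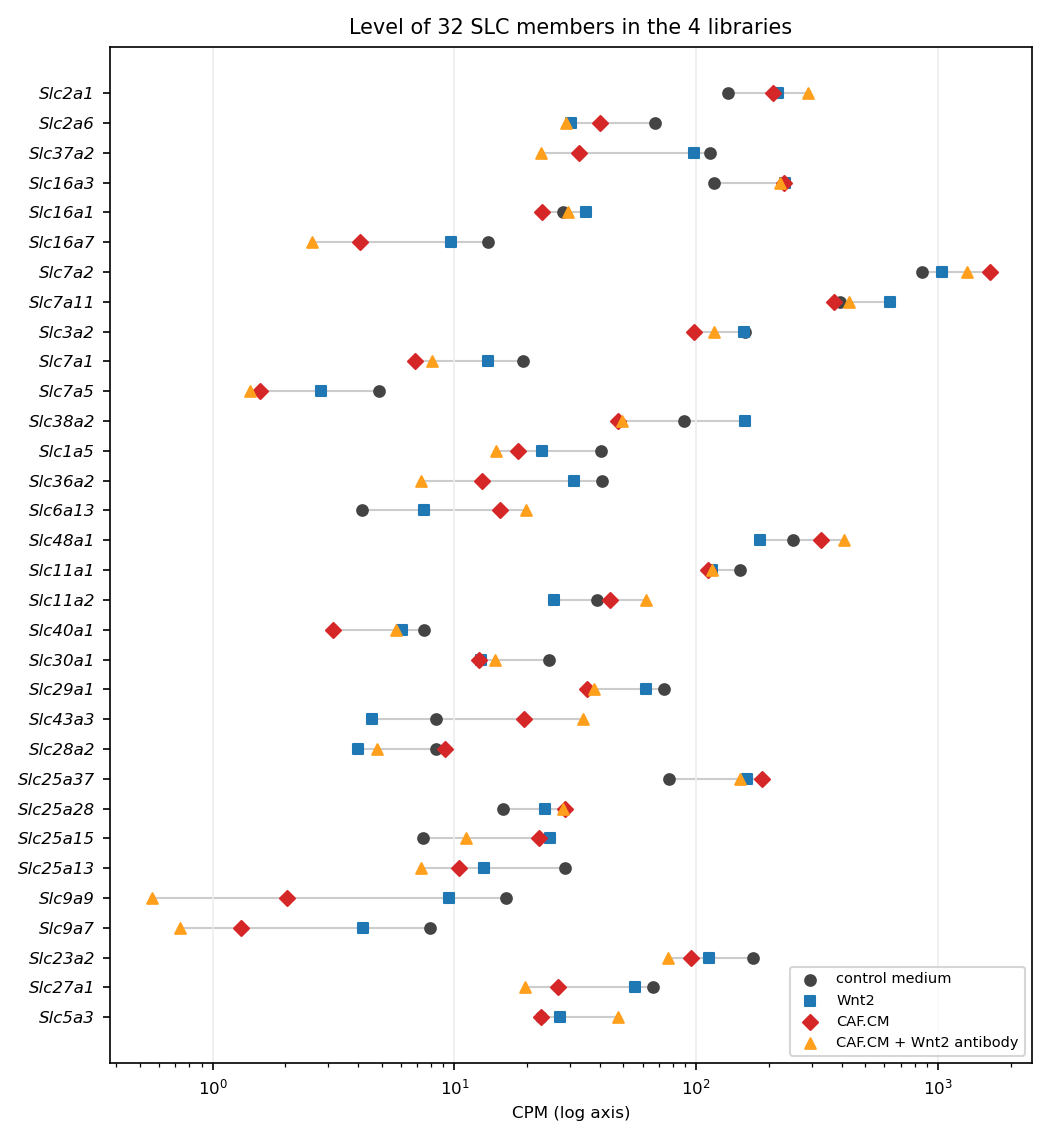
Level in CPM (log axis) of 32 SLC members in the 4 libraries, 1 marker per library and 1 gene per row, with a grey line from the lowest to the highest library. Slc16a3 and Slc25a37 have control medium lowest and the 3 treated libraries together, while Slc9a9 runs down to 0.560 CPM for CAF.CM + antibody, from 16.3 for control medium.

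The lowest ratios of ion carriers with CAF.CM were those of the endosomal sodium-proton exchangers. Slc9a9 was at 16.3 CPM in control medium, 9.48 with Wnt2, 2.04 for CAF.CM and 0.560 for the antibody. The 4 libraries formed a steady descent, with ratios of -0.78, -2.99 (-3.42 to -2.61) and, for the antibody against CAF.CM, -1.72 (-2.86 to -0.97). The last rests on 53 and 13 reads. Slc9a7 had the same order at 7.96, 4.17, 1.31 and 0.733 CPM, and a CAF.CM ratio of -2.59 (-3.14 to -2.12). Its CAF.CM and antibody values rest on 34 and 17 reads, and their ratio of -0.77 (-1.77 to 0.05) does not settle their order. Slc9a3r2, a scaffold named for binding the exchanger Slc9a3 and not a transporter, went from 8.15 to 1.00 CPM with CAF.CM.

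The potassium-chloride cotransporter Slc12a4 was lower with CAF.CM (24.2 CPM against 55.45). Slc12a5 was higher with Wnt2 (7.69 CPM against 3.72) and lower with CAF.CM (0.922 CPM). The CAF.CM value rests on 24 reads, and in that comparison Slc12a5 was listed only through control medium. The phosphate importer Slc20a2 was at 11.97, 15.2, 21.9 and 33.6 CPM, and its relative Slc20a1 at 108, 104, 72.8 and 83.9 CPM. These relatives thus differed from control medium in opposite directions with CAF.CM, at 0.87 and -0.57.

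Of 12 carriers of vitamins, choline and acetyl-CoA 2 were lower with CAF.CM, and of 21 carriers of lipids and other solutes 4 were. The share over all genes was 8.69%. Slc18a1, in the latter class, was under 1 CPM in CAF.CM and so listed only through control medium. It fell short of 2-fold with DESeq2 size factors, TMM factors or total reads. The ascorbate importer Slc23a2 was at 172, 113, 94.8 and 76.7 CPM, and the choline carrier Slc44a1 at 88.2, 72.1, 37.8 and 30.9 CPM. Both descended from control medium through Wnt2 and CAF.CM to the antibody library. The fatty acid transport protein genes differed among themselves. Slc27a6 was at 18.5, 15.3, 2.19 and 3.404 CPM, the lowest CAF.CM ratio of any member at -3.06 (-3.48 to -2.70). Slc27a1 was at 66.2, 55.7, 26.9 and 19.6 CPM, whereas Slc27a4 was higher in each treated library (42.9, 33.9 and 34.2 CPM against 24.9).

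Slc5a3, the myo-inositol importer that cells use against osmotic stress, stood out in the antibody library. It was at 22.75, 27.3 and 22.85 CPM in control medium, Wnt2 and CAF.CM and at 47.4 CPM with the antibody. Its ratio to CAF.CM was 1.05 (0.91 to 1.199). Slc10a3 was at 18.03, 15.8, 10.0 and 4.35 CPM, with an antibody ratio of -1.19 (-1.55 to -0.87), and shares 12.8% of its exon bases with a gene on the same strand.

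Of the 32 members lower with CAF.CM, 25 had a value in the antibody library. Among these, Slc9a9 was lower by 2-fold and Slc6a9 higher by 2-fold than with CAF.CM alone, and of the 6 higher members Slc16a9 was lower by 2-fold, on 9 reads. Both comparisons use the CAF.CM library. With values under 1 CPM, Slc9a9 and Slc16a9 (antibody) and Slc6a9 (CAF.CM) were listed for the antibody comparison only through the higher library.

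**Figure D3:**
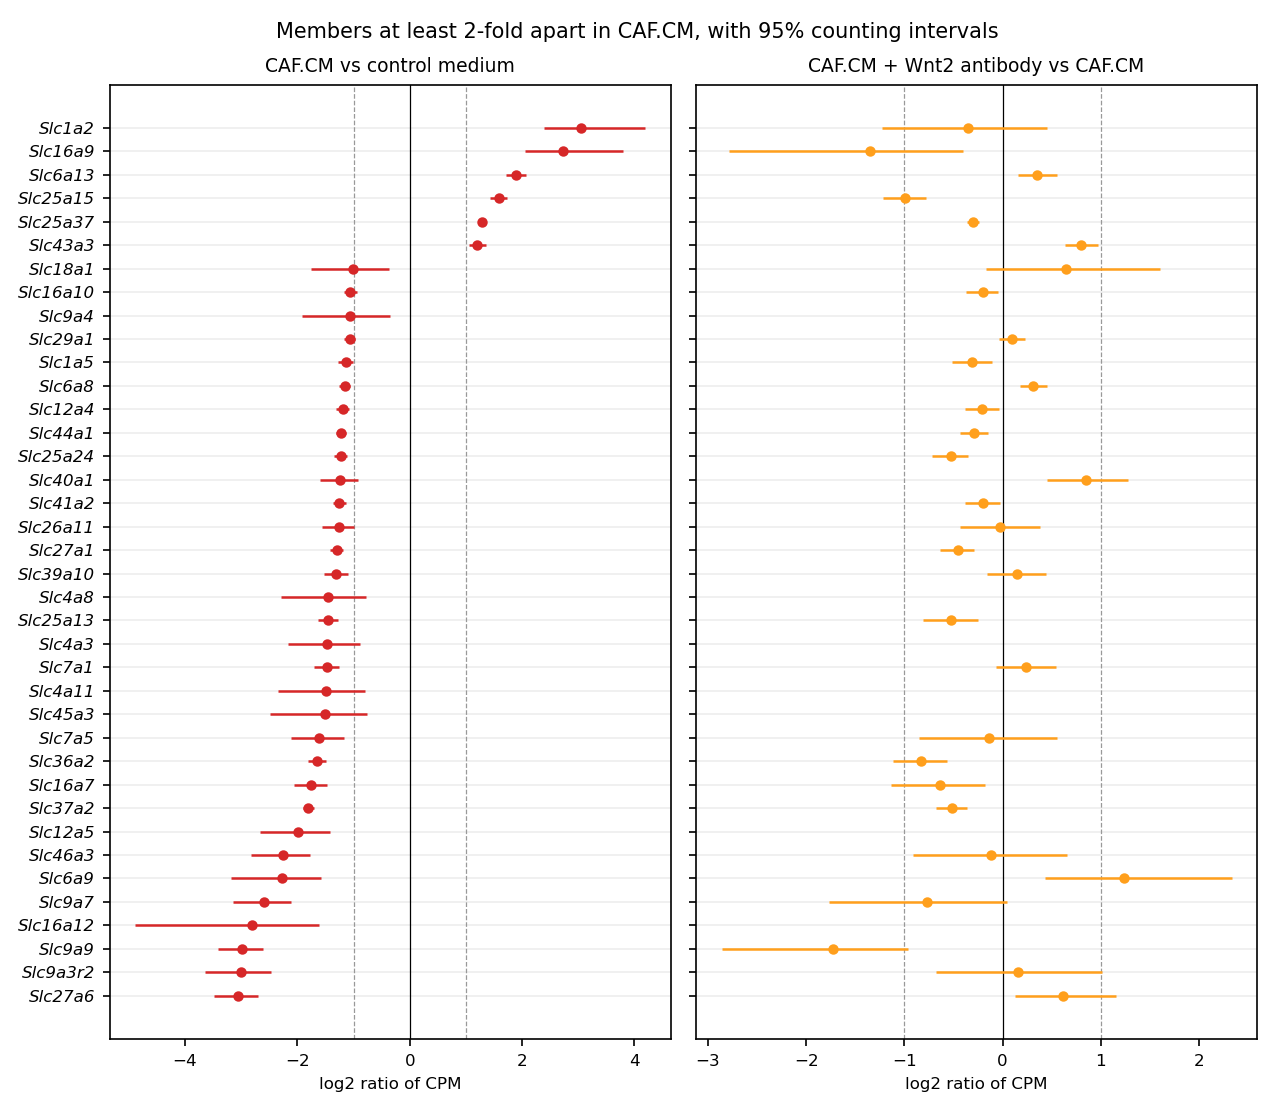
Log2 ratio of CPM (horizontal axes, which differ in range) with 95% counting intervals for the 38 members that differed at least 2-fold with CAF.CM, 1 library per group. Left, CAF.CM against control medium, and right, CAF.CM + Wnt2 antibody against CAF.CM for those with a value, both using the same CAF.CM library. On the right 25 of 32 lower members have a value, and Slc9a9, Slc16a9 and Slc6a9 lie past the dashed 2-fold lines.

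A list of partner, regulator and substrate-handling genes was examined beside the carriers, of which 37 of 42 were in a table. For Wnt2, 36 were listed, with 2 higher and 2 lower, beside 2.87% and 2.93% of all genes. For CAF.CM 37 were listed, with 8 higher and 4 lower, beside 6.68% and 8.69% of all genes. For the antibody against CAF.CM 36 were listed, with 3 higher and 1 lower, beside 1.02% and 3.65%. Of the genes called with CAF.CM, Hamp was listed only through CAF.CM (0.233 CPM in control medium). Slco2b1 was listed there only through control medium (0.077 CPM in CAF.CM). The medians were 0.30, 0.20 and 0.04. Basigin (Bsg), the membrane chaperone of MCT1 and MCT4, was at 130, 207, 345 and 422 CPM. Embigin (Emb), the chaperone of MCT2, was at 552, 1207, 807 and 576 CPM, highest with Wnt2. Txnip, which promotes GLUT1 internalisation, stayed between 2103 and 2686 CPM.

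Several genes of iron and zinc handling were on the list. Hmox1, the heme oxygenase gene, was at 391, 671, 1818 and 2306 CPM. The metallothionein gene Mt2 was at 15.6, 24.1, 44.5 and 96.5 CPM. Hamp, whose product hepcidin degrades ferroportin, was at 0.233 CPM in control medium, 3.96 in CAF.CM and 11.2 with the antibody. The transferrin receptor gene Tfrc was at 49.9, 26.4, 34.4 and 56.2 CPM, lowest with Wnt2. Ucp2, a mitochondrial carrier of the Slc25 family that lacks an Slc name, was at 303, 274, 75.3 and 46.8 CPM.

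The authors' deposited table gave an adjusted p below 0.05 for 16 higher and 19 lower members with Wnt2 (7.36% and 8% of all genes) and for 20 and 59 with CAF.CM (13.9% and 18.8%). For the antibody it gave 3 and 9 (1.42% and 5.55%). The labels do not say what spread those p-values rest on.

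The labelled cell type was checked against its markers. All 10 dendritic cell markers were in a table, 5 of them lower with Wnt2 and 2 of 9 with CAF.CM, with medians of -1.02 and -0.19. Itgax (CD11c) was at 888, 223, 47.7 and 30.3 CPM from control medium and Wnt2 to CAF.CM and antibody. It had the lowest CAF.CM ratio of the list, -4.22, while the others ran from -1.13 (Cd74) to 0.91 (Irf4). Of 10 macrophage and monocyte markers 4 were lower with Wnt2 and 7 with CAF.CM, with medians of -0.80 and -2.50, and 4 were lower with the antibody than with CAF.CM. Their summed level was 28994, 20181, 8525 and 5662 CPM in the same order of libraries. Most of each sum was Lyz2, at 25764, 18050, 6907 and 4425 CPM, so the sum mainly describes that gene. Erythroid markers were in no table, and lymphocyte and mast cell markers were at most 2.04 CPM in any library with a value (Cd3g in control medium). Both neutrophil markers in a table, of 9, were higher with Wnt2: Mmp8 was at 544 CPM in control medium and 1489 with Wnt2, and S100a8 at 4.64 and 11.8. Mmp8 was lower with CAF.CM, at 140 CPM, while S100a8 was at 4.11. Of 9 fibroblast markers 4 were listed for CAF.CM, where Dcn was higher (10.7 CPM against 0.509) and Postn lower (0.691 against 4.51). Acta2 and Pdgfrb had ratios of 0.20 and 0.07, and Col1a1 was in no table. Among the macrophage and monocyte markers, Adgre1 was slightly higher with CAF.CM (404 CPM against 349, ratio 0.21). Csf1r (-0.50) and Cd68 (-0.77) were lower by less than 2-fold. The other 7 were lower by 2-fold, as some SLC members were, and the part of these markers in the SLC differences was not tested.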

How the data were processed

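Total RNA depleted of ribosomal RNA was prepared for sequencing with a strand-specific Illumina kit (input 1 ug), per the labels' protocols. GRCm38.p5 and mm10 are the builds, and edgeR, RSEM 1.2.29 and STAR 2.4.2a the tools, in the submitters' processing notes. The use of strand in counting, and other settings, are not stated there.

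The deposited library columns hold CPM scaled by the authors, in 3 tables of 1 comparison each. The authors also deposited log2 fold changes, log2 mean CPM, p-values and adjusted p-values, per the file headers. Control medium and CAF.CM had identical values in both tables that hold them (12954 of 12954 and 12848 of 12848 genes), so levels are set side by side across tables. Every CPM value was a whole multiple of 1 step per library within 0.1 step (100%), and reads were recovered from these steps (1 read was 0.00706 CPM in control medium and 0.00651 in Wnt2, against 0.0384 in CAF.CM and 0.0431 for the antibody). No count test was run, since 1 library per group leaves no residual degrees of freedom.

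Log2 ratios followed edgeR's log CPM formula, with prior count 2 and library sizes as implied by the authors' CPM. Intervals are exact conditional binomial (Clopper-Pearson, scipy 1.17.1, Python 3.11.15). The calculation was tested on simulated data. The alternatives used DESeq2 1.42.0 size factors, edgeR 4.0.16 TMM factors (R 4.3.3), total reads, other prior counts, a read minimum, a minimum mean CPM, a 1.5-fold threshold and the deposited log2 fold changes. Symbols and lengths came from GENCODE M21, which matched 190 of 190 members. Shared words are 31-base words of the longest transcript also found in the longest transcript of other genes. Promoter windows are RefSeq's, GRCm38.p6, cut to 250 bases before the start site. For every motif, member windows on chromosome 18 were left out. Shares over all windows had no such limit and were not restricted to listed genes.

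Members, substrate classes and lists were chosen with earlier results of these data known. Named genes are the 12 highest and 12 lowest members per comparison past 2-fold with at least 200 reads over both libraries and 5 CPM in 1, up to 3 per class under the same minimum, the most abundant of each class, and a set of well-studied members. Other members named as counted or as relatives (Slc1a2, Slc12a4, Slc16a9, Slc16a10, Slc25a11, Slc18a1, Slc20a1, Slc22a15, Slc22a18, Slc25a12 and Slc12a2) were chosen after their values were seen, as were the printed promoters. A few members are not reported here.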

Additional observations from a re-analysis of the deposited data

How the results depend on the processing

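No called member changed sign under another scaling (DESeq2 size factors, TMM factors or total reads), a prior count of 0.5 or 5, or the deposited log2 fold changes, which exist for 3 of the 4 comparisons. With a 1.5-fold threshold, 14 members were higher and 20 lower with Wnt2 (7.65% and 10.9%, beside 7.38% and 8% of all genes), and 21 and 56 with CAF.CM (11.1% and 29.6%, beside 13.8% and 17.9%). They were 9 and 19 with the antibody against CAF.CM (5% and 10.6%, beside 4.4% and 10.7%), and 26 and 64 against control medium (14.4% and 35.6%, beside 17.4% and 23.9%). With at least 100 reads in 1 library, 1 was higher and 2 lower with the antibody against CAF.CM. With a mean of at least 5 CPM over both libraries, also chosen after seeing the data, 3 were lower with Wnt2, 19 lower with CAF.CM, and 1 higher and 2 lower with the antibody against CAF.CM. Without 27 members that share sequence or exons with another gene, a choice made after seeing the data, 1 was higher in that comparison, since Slc6a9 is among them. Scalings moved Slc16a3, Slc16a10, Slc18a1, Slc22a15, Slc25a15, Slc25a37, Slc25a11, Slc2a9 and Slc39a1 across 2-fold. Of 3362 values of named members under an alternative, 3291 stayed within the counting interval. That count includes the read and CPM minimums, the 1.5-fold threshold and the dropped members, which leave each ratio unchanged. It therefore does not measure how far the ratios depend on scaling. No paired analysis was possible because each group has 1 library and the labels give no replicate numbers. Depth limits the CAF.CM libraries most: 17 of the 38 members 2-fold apart with CAF.CM, Slc27a6, Slc9a9 and Slc7a5 among them, rest on under 60 reads there.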
